A study of Homo sapiens with 20 samples.

Results

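Tryptophan is broken down along the kynurenine pathway or loaded onto its tRNA, and the enzymes of these routes were followed here in U2OS cells, a human osteosarcoma line. The 9 genes IDO1, IDO2, TDO2, AFMID, KYNU, KMO, KYAT1, WARS1 and WARS2 were taken by name from a table of 43366 genes, and all 9 were found. The study sequenced mRNA from 5 WT clones and 5 clones labelled ZBTB48 KO, each without treatment (none) and after 24 h with 250 U/ml IFNγ, which gave 20 libraries and 5 per group. Every clone descends from the U2OS line, each group was cultured in the same medium, and the KO clones carry a disruption of ZBTB48, a zinc finger protein that binds telomeric DNA and promoters. The study asked whether ZBTB48 regulates CIITA, the master regulator of MHC-II genes. It used these libraries to see how widely loss of ZBTB48 affects the IFNγ response.

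IDO1, IDO2 and TDO2 each open the ring of tryptophan and so catalyse the first step of the kynurenine pathway. AFMID then releases kynurenine, from which KMO, KYNU and KYAT1 lead to 3-hydroxykynurenine, the anthranilic acids and kynurenic acid. WARS1 and WARS2 are the cytoplasmic and the mitochondrial tryptophanyl-tRNA synthetase. IFNγ is known to switch on IDO1, which starves microbes and neighbouring T cells of tryptophan, and WARS1 is likewise a classical IFNγ-inducible gene.

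Total counts per library ranged from 46652288 to 72952859, and 3 counts, taken as the floor, came to between 0.0404 and 0.0609 CPM (counts scaled to library size after TMM normalization). Untreated WT clones had 8.02 to 9.43 CPM of ZBTB48. The untreated libraries labelled KO had 1.29, 1.94, 11.3, 3.12 and 4.06 CPM, so the third library labelled KO went against its label, as did its treated counterpart at 15.8 CPM. A disrupted gene can still be transcribed, and protein was not measured in these libraries. Treated KO replicates 4 and 5 also resembled each other's untreated libraries more than their own. Of 8 osteoblast markers, 5 exceeded a mean of 1 CPM in each group, whereas IBSP never exceeded 3 counts, SP7 never 4 and BGLAP never 6. Summed lymphocyte markers reached at most 0.225 CPM and summed myeloid markers between 1.01 and 4.29 CPM. Among hepatocyte markers, 1 of 5 genes, SERPINA1, exceeded a mean of 1 CPM in each group, the sum ranged from 12.7 to 554 CPM, and TTR never exceeded 3 counts. In RNA from whole cultures, more transcript per cell and more cells with the transcript cannot be told apart.

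After IFNγ, IDO1, KMO and WARS1 rose in both the WT and the KO-labelled clones, and none of the 9 genes fell (edgeR quasi-likelihood test, Benjamini-Hochberg adjusted p under 0.01 and more than 2-fold). IDO2 was below edgeR's filter on low counts in both IFNγ comparisons, so 8 of 9 genes were tested in each. In the WT clones, 485 of 19522 genes tested (2.48%) rose and 100 (0.512%) fell. In the KO-labelled clones, 329 of 19385 (1.7%) rose and 50 (0.258%) fell. With the clone as a replicate block, 1414 and 721 genes were called in place of 585 and 379, with the same 3 members. The 721 pairs KO libraries as labelled, although treated KO replicates 4 and 5 resembled each other's untreated libraries. The count with them exchanged was higher and is given further below. Without KO replicates 4 and 5, only 22 genes were called in the KO-labelled clones, among them 1 member, IDO1.

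IDO1 lies on chromosome 8 of GRCh38 from 39913891 to 39928790, on the plus strand. Untreated WT clones held 3, 0, 7, 0 and 0 counts of it, and untreated KO-labelled clones none. In treated WT clones 1 to 5 it stood at 666, 699, 1118, 672 and 707 CPM. Treated KO-labelled libraries had 851, 610, 639, 710 and 665 CPM. Every treated library was thus far above every untreated one, and the ranges of the 2 treated groups overlapped. The level of IDO1 in treated WT clones was 22501 times the untreated level (95% counting interval 12235 to 46923, from 10 untreated counts in all). WT replicate 3 held 7 of these counts and the highest treated level, and without it the ratio was 53665 (18363 to 260227, from 3 counts). Both intervals cover the counting of untreated reads only, not the spread between clones. In the KO-labelled clones the treated level was at least 12503-fold higher than the floor of 3 counts per library. Adjusted p was 7.0e-08 and 2.9e-07, with a rise in 5 of 5 clones of each label. No gene tested had a larger fitted fold change in either comparison. As untreated KO-labelled clones held no counts of IDO1, its fitted size there, and with it this first place, depends on the prior count. On CPM per kilobase of exon, IDO1 ranked 126 of 43366 genes in treated WT clones and 135 in treated KO-labelled clones.

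IDO2, the paralogue with weaker activity on tryptophan, lies on chromosome 8 downstream of IDO1, from 39934651 to 40016392 on the same strand. Its untreated counts were 0, 0, 2, 0 and 0 in WT clones and 0 in all 5 KO-labelled clones. After IFNγ, WT clones had 3, 1, 7, 7 and 2 counts and KO-labelled clones had 6, 7, 10, 17 and 9. In the KO-labelled clones the treated mean of 0.172 CPM was at least 3.09-fold higher than the floor. Treated and untreated libraries there did not overlap (unpaired exact permutation test, p = 0.00794, the smallest possible for 5 against 5). In the WT clones only 2 of 5 treated libraries exceeded 3 counts, and no fold is given. Treated and untreated WT libraries overlapped (same exact permutation test, p = 0.0238), and the level rose in 5 of 5 clones of each label. Without the filter on low counts, edgeR's adjusted p was 0.0123 in KO-labelled clones and 0.249 in WT clones.

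TDO2, the tryptophan 2,3-dioxygenase best known from liver, lies on chromosome 4 from 155903696 to 155920406 (plus strand). Untreated WT clones had 1.61, 1.13, 3.05, 3.85 and 1.01 CPM, and treated ones 0.816, 1.2, 3.39, 2.73 and 0.733 CPM. Untreated KO-labelled libraries had 1.78, 0.607, 1.92, 1.74 and 0.218 CPM, and treated ones 3.25, 1.39, 2.04, 0.667 and 2.12 CPM. All 4 groups overlapped, and clones of 1 group differed more than the treatments did. The log2 fold change was -0.25 ± 0.52 (SE) in WT clones (adjusted p = 0.84) and 0.59 ± 0.57 in KO-labelled clones (adjusted p = 0.59). Per kilobase, treated WT clones held 418 CPM of IDO1 against 1.04 CPM of TDO2, whereas in untreated WT clones TDO2 stood at 1.25 CPM and IDO1 at 0.0208 CPM.

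**Figure D1:**
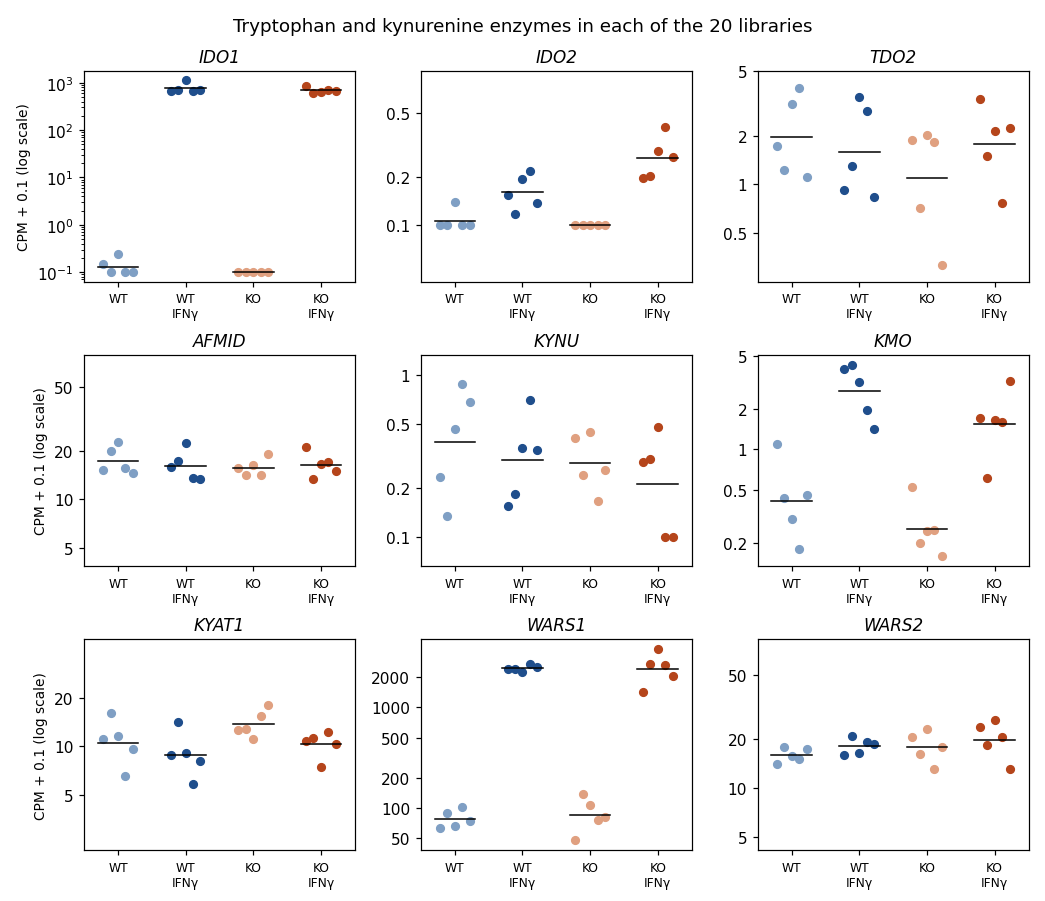
Levels of the 9 genes in each of the 20 libraries, as CPM + 0.1 on a log axis, with WT in blue and KO-labelled clones in orange, darker where treated. Points in a group follow replicates 1 to 5, and the line is the geometric mean. IDO1 and WARS1 lie far higher in every treated library, KMO is higher at lower levels, and AFMID, KYAT1 and WARS2 overlap between all groups.

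The next enzyme, AFMID (arylformamidase), lies on chromosome 17 from 78187362 to 78207702 (plus strand). Its mean level was 17.6 ± 3.56 CPM (SD, n = 5) in untreated and 16.4 ± 3.68 in treated WT clones, and 15.8 ± 1.99 and 16.5 ± 2.89 in KO-labelled clones. The order of the 4 groups was therefore within the spread of the clones. Log2 fold changes were -0.08 ± 0.18 (SE) and 0.06 ± 0.15, with adjusted p of 0.84 and 0.86.

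KMO, the mitochondrial kynurenine 3-monooxygenase, lies on chromosome 1 from 241532378 to 241595642 (plus strand). It had 0.998, 0.335, 0.203, 0.0815 and 0.354 CPM in untreated WT clones and 3.91, 4.2, 3.11, 1.89 and 1.32 CPM after IFNγ. In KO-labelled libraries it had 0.425, 0.101, 0.148, 0.152 and 0.0594 CPM untreated and 1.61, 0.511, 1.55, 1.5 and 3.17 CPM treated. The lowest treated library lay above the highest untreated one within each label, and the untreated libraries held only 3 to 60 counts. The log2 fold change was 2.87 ± 0.59 (SE) in WT clones (adjusted p = 0.0097) and 3.22 ± 0.59 in KO-labelled clones (adjusted p = 0.0084), and the level rose in 5 of 5 clones of each label. Without WT replicate 2, 3, 4 or 5 the adjusted p in WT clones came to 0.067, 0.046, 0.022 and 0.026. Without KO replicate 1, 3, 4 or 5 it came to 0.014, 0.055, 0.058 and 0.042 in KO-labelled clones, and to 0.25 without both 4 and 5. Of its 5017 exon bases, 1568 (31.3%) are shared with OPN3 on the opposite strand, which had 0.811, 0.893, 0.686 and 0.499 CPM on average in untreated WT, treated WT, untreated KO-labelled and treated KO-labelled clones.

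KYNU, or kynureninase, lies on chromosome 2 from 142877664 to 143055833 (plus strand) and was close to the floor in many libraries. Its counts were 8, 2, 18, 48 and 33 in untreated and 3, 5, 19, 36 and 13 in treated WT clones. KO-labelled libraries had 16, 7, 21, 4 and 8 counts untreated and 12, 14, 20, 0 and 0 treated. Treated and untreated libraries overlapped under both labels, with log2 fold changes of -0.59 ± 0.77 (SE) and -0.40 ± 0.90 and adjusted p of 0.71 and 0.85.

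KYAT1, a kynurenine aminotransferase that yields kynurenic acid, lies on chromosome 9 from 128832942 to 128882523 (minus strand). Untreated WT clones had 11, 16, 11.4, 6.49 and 9.56 CPM, and treated ones 8.74, 14.1, 9.02, 5.75 and 8 CPM. KO-labelled libraries had 12.5, 12.6, 11.1, 15.3 and 17.8 CPM untreated and 10.7, 11.1, 7.39, 12.2 and 10.2 CPM treated. The treated library was the lower one in 5 of 5 clones of each label, although the groups overlapped. The log2 fold change of -0.24 ± 0.27 (SE) in WT clones (adjusted p = 0.65) and -0.43 ± 0.18 in KO-labelled clones (adjusted p = 0.18) did not pass the test. Among the alternative edgeR and DESeq2 fits, the lowest adjusted p was 0.029 in WT clones and 0.011 in KO-labelled clones, and none called KYAT1. In order of level the groups ran from untreated KO-labelled (13.9 ± 2.7 CPM, SD) over untreated WT (10.9 ± 3.46) and treated KO-labelled (10.3 ± 1.79) to treated WT (9.13 ± 3.08). The ranges of neighbours in that order overlapped.

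WARS1 lies on chromosome 14 from 100333790 to 100376327 (minus strand) and was the most abundant of the 9 genes per kilobase in every group. Untreated WT clones had 63.3, 89, 65.6, 102 and 74.5 CPM. After IFNγ they had a mean of 2457 ± 189 CPM (SD, n = 5), with a range from 2228 to 2736 CPM. Untreated KO-labelled libraries had 47.4, 136, 108, 75 and 81.8 CPM, and treated ones 1417, 2708, 3836, 2638 and 2075 CPM. Treated and untreated libraries were far apart under both labels, and the treated KO-labelled libraries spread more widely than the treated WT clones, with the 2 extremes in replicates 1 and 3. WARS1 rose by a log2 fold change of 4.98 ± 0.17 (SE, adjusted p = 2.7e-08) in WT clones and of 4.82 ± 0.35 (adjusted p = 1.5e-05) in KO-labelled clones, in 5 of 5 clones of each. Without KO replicates 4 and 5 the change was 4.77 with an adjusted p of 0.0295, which no longer passed the cut-off. By CPM per kilobase, it moved from rank 2472 to rank 49 of 43366 genes in WT clones and from 2164 to 50 in KO-labelled clones.

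WARS2, in turn, lies on chromosome 1 from 119031216 to 119140672 (minus strand). It had 14, 17.9, 15.6, 15.1 and 17.3 CPM in untreated and 16, 20.8, 16.3, 19.2 and 18.7 CPM in treated WT clones. KO-labelled libraries had 20.6, 16, 23, 13 and 17.9 CPM untreated and 23.7, 18.4, 26.2, 20.5 and 13.1 CPM treated. All groups overlapped, with log2 fold changes of 0.20 ± 0.12 (SE, adjusted p = 0.33) and 0.17 ± 0.21 (adjusted p = 0.69). The level of WARS1 per kilobase was 5.44 ± 1.17 times (SD, n = 5) that of WARS2 in untreated WT clones and 149 ± 14.1 times in treated ones. In KO-labelled clones the ratio was 5.67 ± 2.47 untreated and 141 ± 43.5 treated. WARS2 shares 277 exon bases (8.1%) with WARS2-AS1 on the opposite strand, which had means of 13.4 to 15.4 CPM.

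The 250 bases before annotated transcription starts were searched for the core letters of 2 interferon elements and for TTAGGG, the telomeric repeat that ZBTB48 binds. The core TTCNNNGAA of the IFNγ-activated sequence (GAS) occurs in 6.57% of 35116 such windows of RefSeq (GRCh38.p14). The ISRE core (GAAA, any pair of bases, GAAA, on either strand) occurs in 3.02%, and TTAGGG on either strand in 7.94%. Windows were found for 7 of 9 members, all but IDO1 and IDO2, at 11 starts. WARS1, WARS2, KYNU and KYAT1 held a match, whereas TDO2, AFMID, KMO and the outer start of WARS1 at 100376327 held none. The matches of WARS1 and WARS2 are shown because the first rose and the second was not called, and those of KYNU because it alone held TTAGGG. Each run is read 5′ to 3′ on the gene's strand with 10 bases to either side, and capitals mark the match. Matches are letters in a window, not measured binding sites.
WARS1, GAS, chr14:100375471-100375499, minus strand, first base 142 before the inner start at 100375347: gctcaagtgtTTCTGAGAAtctgggtgat
WARS1, ISRE, chr14:100375383-100375412, minus strand, first base 55 before the inner start: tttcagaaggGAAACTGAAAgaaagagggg
WARS2, GAS, chr1:119140845-119140873, minus strand, first base 191 before the start at 119140672: gaaattctccTTCCAGGAAggctgagcag
KYNU, GAS, chr2:142877620-142877648, plus strand, first base 34 before the start at 142877664: gtctgagcagTTCTTTGAAtttctcaccc
KYNU, TTAGGG, chr2:142877559-142877584, plus strand, first base 95 before the start: taccgattggTTAGGGgagaggaagt
KYNU, TTAGGG on the other strand, chr2:142877636-142877661, first base 18 before the start: gaatttctcaCCCTAAgatctggcct

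Of the 3 members that rose, WARS1 thus had both interferon cores at its inner start, and KMO had neither in its window, while IDO1 was not searched. WARS2 and KYNU, which were not called, each held a GAS core. KYAT1, also not called, held an ISRE core 124 bases before its outer start and a GAS core 122 bases before an inner one. A GAS core thus occurred in a member that rose and in members that were not called.

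WARS1 stood apart from the other cytoplasmic aminoacyl-tRNA synthetases, the enzymes that load each amino acid onto its tRNA. Of 19 others, 5 rose in WT clones, namely GARS1, SARS1, CARS1, YARS1 and AARS1, of which the 4 with the largest change had log2 fold changes of 1.56, 1.54, 1.52 and 1.33. In KO-labelled clones 4 rose, SARS1 by 1.45, GARS1 by 1.37, CARS1 by 1.30 and YARS1 by 1.13. None fell, and the median change over the 19 was 0.66 and 0.48, beside -0.03 over all genes tested in each comparison. Of 16 listed genes of mitochondrial synthetases other than WARS2, 0 were called under either label by edgeR, with 3 and 7 at an unadjusted p under 0.05 and 0 called by DESeq2. The count of cytoplasmic synthetases called in KO-labelled clones was 0 without KO replicate 1 or 4, 1 without 3 or 5, 5 without 2, and 0 without both 4 and 5.

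WARS1 made up 2.55% ± 0.37 (SD, n = 5) of the summed CPM per kilobase of the 20 cytoplasmic synthetases in untreated WT clones and 31.9% ± 1.69 in treated ones. In KO-labelled clones the share was 2.34% ± 0.55 untreated and 29.2% ± 5.91 treated. It ranked between 14 and 19 of the 20 in the untreated libraries and first in all 10 treated libraries. Treated and untreated shares differed in both labels (exact permutation test, p = 0.00794 in each, the smallest possible), and WT and KO-labelled shares did not pass this test (p = 0.52 untreated and 0.42 treated).

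WT and KO-labelled clones were compared at each treatment and in their response. None of the members was called in untreated libraries, where 3 of 19505 genes (0.0154%) were, or in treated libraries, where 3 of 19383 (0.0155%) were. IDO1 and IDO2 were under the filter in the untreated comparison and IDO2 in the treated one, which left 7 and 8 members tested. At an unadjusted p under 0.05 edgeR gave 0 of the tested members in both comparisons, and DESeq2 called 0. Treated libraries had mean IDO2 levels of 0.0642 CPM in WT and 0.172 CPM in KO-labelled clones. Their ranges overlapped (exact permutation test, unadjusted p = 0.0317), and they held at most 17 counts of it per library. For the difference between the IFNγ responses, 0 of 21052 genes (0%) were called by edgeR or DESeq2, with 86 genes and 1 member, IDO1, at an unadjusted p under 0.05. All untreated KO-labelled libraries held 0 counts of IDO1, so the size fitted for that difference depends on the prior count and is not given.

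The 95% intervals give a rough guide to what these comparisons could leave undetected. They use the normal multiple of the SE, which makes them somewhat too narrow for 10 libraries. Between treated WT and KO-labelled libraries, the log2 difference was 0.15 (interval -0.17 to 0.48) for IDO1 and -0.05 (-0.47 to 0.38) for WARS1. It was 0.79 (-0.11 to 1.69) for KMO, whose treated mean was 2.89 ± 1.26 CPM (SD, n = 5) in WT and 1.67 ± 0.95 in KO-labelled clones. The intervals for WARS2 (-0.52 to 0.20), AFMID (-0.37 to 0.36) and KYAT1 (-0.65 to 0.30) also held 0. For TDO2 and KYNU they were wider, from -1.09 to 0.91 and from -1.16 to 2.53. In untreated libraries, the log2 difference was -0.19 (-0.67 to 0.29) for WARS1, 1.15 (-0.18 to 2.48) for KMO, 0.75 (-0.37 to 1.87) for TDO2 and 0.88 (-0.49 to 2.25) for KYNU.

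Within clones, the treated and the untreated library of the same number were also subtracted on the scale of log2(CPM + 0.1), which understates changes of low genes. WARS1 changed by 4.74 to 5.24 in WT clones and by 4.31 to 5.15 in KO-labelled clones, with means of 4.98 ± 0.22 (SD) and 4.83 ± 0.35 (exact permutation test of the difference, n = 5 and 5, p = 0.47). KMO changed by 1.64 to 3.45 and by 1.60 to 4.36 (exact p = 0.94). IDO2 changed by 0.58 ± 0.34 (SD) in WT clones and by 1.39 ± 0.43 in KO-labelled clones (exact p = 0.0238), which is the only member with p under 0.05 of the 9 tests made and rests on at most 17 counts per library. TDO2 changed by -0.31 ± 0.43 and 0.71 ± 1.48 (exact p = 0.18). With treated KO replicates 4 and 5 exchanged, the SD of TDO2 in KO-labelled clones was 0.51 and the unadjusted exact p was 0.0159. With the clone as a replicate block and the same exchange, edgeR's adjusted p was 1.0. That value is adjusted over all genes tested, so it cannot be set against the exact p.

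**Figure D2:**
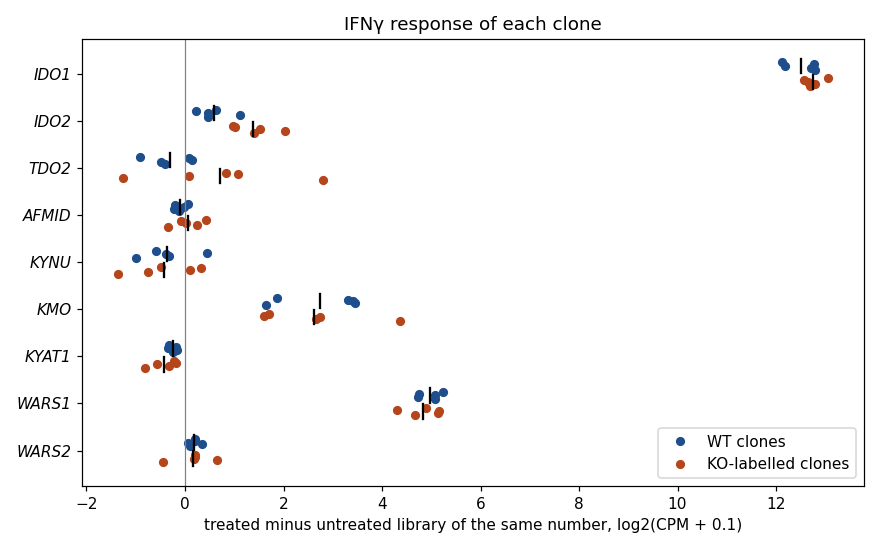
Difference between the treated and untreated library of the same number on the scale of log2(CPM + 0.1), for WT clones (blue) and KO-labelled clones (orange), with black bars for the means. IDO1, WARS1 and KMO lie above 0 in all 10 clones, KYAT1 lies below 0 in all 10, and TDO2 in KO-labelled clones spreads from -1.26 to 2.80.

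Genes around the enzymes were read from lists. Of 6 regulators of IDO1, 4 rose in WT clones and 3 in KO-labelled clones. IRF1, a transcription factor that acts on IDO1 and other interferon targets, changed by 4.96 and 4.72 (log2), IRF8 by 3.12 and 3.09, and the feedback inhibitor SOCS1 by 2.20 and 2.10. PTGS2, a prostaglandin synthase, rose by 1.92 in WT clones and had 2.16 (adjusted p = 0.053, edgeR) in KO-labelled clones. SOCS3, a related inhibitor, had -0.97 (adjusted p = 0.074) and -1.18 (adjusted p = 0.015), and in KO-labelled clones it was called lower by DESeq2 and with the replicate block. Of 9 genes of the response to amino acid shortage, 7 rose in WT clones, with a list median of 2.71, and 5 in KO-labelled clones, with a median of 2.24. Of all genes tested, 2.48% and 1.7% rose. EIF2AK4 and GCN1 of this list had -0.30 and -0.10 in WT clones and -0.50 and -0.17 in KO-labelled clones, and neither was called. Tryptophan itself was not measured. CHAC1 and TRIB3, targets of the transcription factor ATF4, changed by 3.85 and 3.72 in WT clones and by 2.7 and 3.33 in KO-labelled clones. DDIT4 and SESN2, which restrain mTORC1, changed by 2.88 and 2.75 in WT clones and by 2.7 and 2.66 in KO-labelled clones. Without KO replicates 4 and 5, 0 genes of this list and 0 of the regulators were called in KO-labelled clones by edgeR, with 8 and 5 at an unadjusted p under 0.05. When 1 clone was left out, 4 to 6 genes of the shortage response were called in WT clones, with the 4 reached without replicate 2 or 4. In KO-labelled clones it was 3 without replicate 1, 6 without replicate 2 and 2 without replicate 3, 4 or 5.

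Of 8 transporters of tryptophan and kynurenine, 7 were tested and 3 rose in WT clones, SLC7A11 by 2.10, SLC3A2 by 1.68 and SLC7A5 by 1.53 on the log2 scale. SLC3A2 and SLC7A5 together form the exchanger of large neutral amino acids LAT1, and SLC7A11 with SLC3A2 the cystine and glutamate exchanger. In KO-labelled clones only SLC3A2 was called, with 1.45, while SLC7A11 had 1.43 (adjusted p = 0.018) and SLC7A5 1.10 (adjusted p = 0.036). With the replicate block 3 were called higher in KO-labelled clones as well, likewise without KO replicate 2, whereas edgeR called 0 without KO replicate 1, 3, 4 or 5 and without both 4 and 5.

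Of 10 genes of the further kynurenine and NAD steps, 8 were tested. KYAT3, a second kynurenine aminotransferase, was called in KO-labelled clones with a log2 fold change of 1.06 ± 0.19 (SE, adjusted p = 0.0075), and in WT clones it had 1.06 ± 0.27 (adjusted p = 0.026). It was not called without KO replicate 1, 3, 4 or 5 or without both 4 and 5, and with the replicate block 1 gene of the list was called in WT clones. HAAO, the dioxygenase downstream of KMO and KYNU, never exceeded 10 counts, and ACMSD never exceeded 23. QPRT, which turns quinolinic acid towards NAD, had log2 fold changes of -0.64 ± 0.38 and -0.55 ± 0.64 (SE).

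Of the 9 receptors and targets of kynurenines, 6 were tested and 0 were called under either label by edgeR or DESeq2, with 1 in WT clones and 0 in KO-labelled clones at an unadjusted p under 0.05. AHR, the receptor activated by kynurenine, had 0.917 to 2.79 CPM in untreated and 0.525 to 2.41 CPM in treated WT clones. KO-labelled libraries had 1.51, 0.182, 0.674, 9.21 and 1.13 CPM untreated and 1.5, 0.292, 0.246, 0.793 and 9.03 CPM treated. One library per treatment was thus far above the others, untreated KO replicate 4 and treated KO replicate 5, and without it the means of 2.54 and 2.37 CPM came to 0.872 and 0.708 CPM, beside 1.82 and 1.5 CPM in WT clones. Of the 9 genes of other tryptophan routes, 5 were tested and 0 were called, with 3 at an unadjusted p under 0.05 under each label. In WT clones, DESeq2 called IL4I1 higher, the replicate block called IL4I1 and AANAT higher and MAOA lower, and MAOA was also called lower without WT replicate 3. In KO-labelled clones the block called the same 3 genes with treated KO replicates 4 and 5 exchanged.

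**Figure D3:**
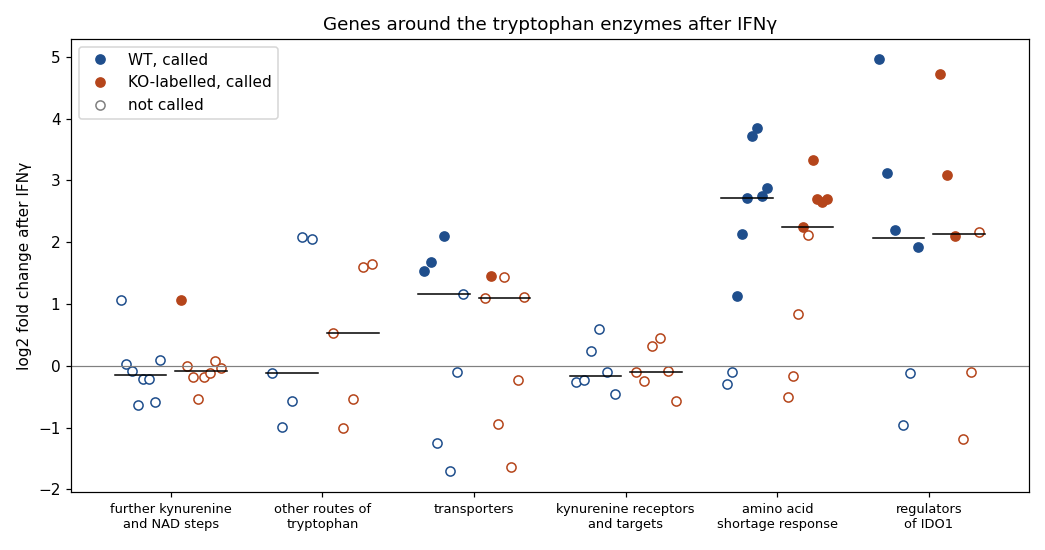
Log2 fold change after IFNγ of each tested gene in 6 lists, in WT clones (blue) and KO-labelled clones (orange), with filled points for called genes and a bar for the list median. The medians of the amino acid shortage response lie at 2.71 and 2.24 and those of the regulators of IDO1 at 2.06 and 2.13, whereas those of the further kynurenine steps lie at -0.15 and -0.08.

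For the 3 members that rose, the 5 genes most like them were sought by the root mean square (RMS) difference of centred log2(CPM + 0.1) over the 20 libraries, as a description. The libraries share a cell line and the 2 treatments, so that any gene with a similar change comes close. IDO1 was nearest to GBP5 (RMS difference 0.41, against an SD of 6.49 of IDO1 itself), an interferon-inducible GTPase with 805 and 818 CPM in treated WT and KO-labelled clones. GBP4, CXCL9, GBP1 and CXCL11 followed at 1.49 to 1.79. WARS1 was nearest to IRF1 (0.50), IL18BP (0.52), TAP1 (0.57), ART3 (0.61) and PDCD1LG2 (0.62), against its own SD of 2.55. KMO was nearest to SP110 (0.58), followed by LOC101929307, DDX60L, CASP4 and LINC02328 at 0.70 to 0.77, against an SD of 1.60. The measure also counts the size of a change, so IDO1, with an SD of 6.49, could share no near gene with WARS1 or KMO. That these 15 genes all differ therefore says nothing about IDO1.

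**Figure D4:**
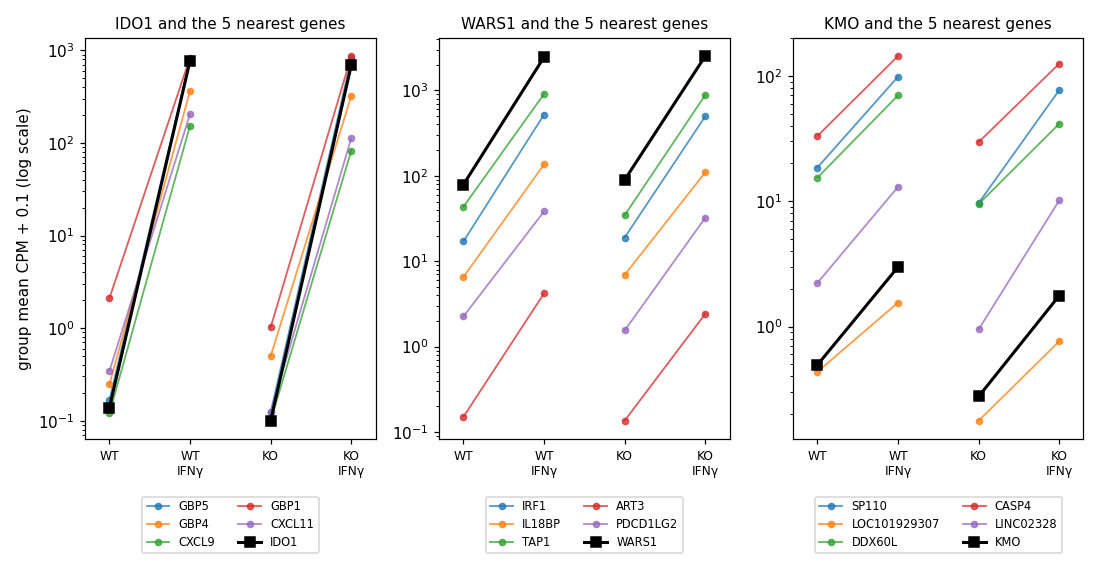
Group means as CPM + 0.1 on a log axis for IDO1, WARS1 and KMO (black squares) and the 5 genes nearest to each, with lines from untreated to treated within a label. IDO1 and GBP5 run nearly in parallel from near 0 to 773 and 805 CPM in WT clones, GBP1 starts higher at 2 CPM and reaches 837 CPM, and KMO lies at lower levels than 4 of its 5 nearest genes.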

How the data were processed

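The authors deposited counts of whole genes for 20 stranded mRNA libraries, made from reads aligned to GRCh38 with STAR 2.7.9a on RefSeq annotation, reduced to unique mappers and counted with featureCounts 2.4.0, without normalization. Summed exon lengths were taken from the same table. The strand setting of the counting is not given in the sources used here. No gene lacked a name, and 0 columns were left out. The 9 members, the lists and the tests were chosen with earlier results of these data known. Values are given for called list genes by size of change, at most 4 per list and direction, and for some genes not called. One gene of the list of regulators is not reported here.

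Counts were scaled by TMM and tested in R 4.3.3 with edgeR 4.0.16 (filterByExpr, robust quasi-likelihood, 10 libraries per comparison, all 20 for the difference of responses), with a call at an adjusted p under 0.01 and more than 2-fold. SE was derived from the log2 fold change and F. The script was tested on simulated data. Single members were compared by two-sided exact permutation tests over 252 arrangements. Between treated and untreated libraries these tests did not use the pairing by clone, and neither did the main edgeR fit. Alternatives were size factors, no filter, DESeq2 1.42.0, other cut-offs, all libraries in one fit, the replicate block and leaving out clones.

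Labels give both libraries of a clone 1 number. Deviations from the group mean over 21052 genes correlated within WT numbers at Pearson's r of 0.63 to 0.80 and within KO numbers 1 to 3 at 0.65, 0.79 and 0.60, but at -0.020 and 0.045 within KO numbers 4 and 5. Genes are not independent replicates. Numbers shared between WT and KO clones did not pair (r from -0.21 to 0.23). Between labels the replicate block joins clones by these numbers, so its pairing there is arbitrary.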

Additional observations from a re-analysis of the deposited data

Results flagged for a closer look

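IDO1 in treated WT replicate 3 stood at 1118 CPM, apart from the other 4 treated WT clones at 666 to 707 CPM. KMO in untreated KO-labelled replicate 1 stood at 0.425 CPM, from 22 counts, apart from the other 4 at 0.0594 to 0.152 CPM. These were 2 libraries set apart by Dixon's test in 33 groups of 5 libraries, of which chance sets apart about 1.65. The response of IDO2 differed between labels, with WT minus KO-labelled clones at -0.81 on the scale of log2(CPM + 0.1) (exact permutation test, p = 0.0238, 1 of 9 such tests), higher than 0 in 5 of 5 clones of each label. It rests on 1 to 17 counts per treated library. Without the filter on low counts, edgeR gave an adjusted p of 1.0 for this difference. That value is adjusted over all genes tested and the exact p is not, so they cannot be set against each other.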

How the results depend on the processing

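IDO1, KMO and WARS1 were called in both IFNγ comparisons under each alternative that kept all clones, namely RLE size factors, no filter on low counts, DESeq2 with and without shrinkage, the replicate block, all 20 libraries in one fit and an adjusted p under 0.05 with no fold cut-off. IDO1 and WARS1 were also called without any single clone, and KMO was not, as given beside its values. No member was called between WT and KO-labelled clones or for the difference of responses under any alternative. In WT clones, 2202 genes passed at an adjusted p under 0.05 with no fold cut-off, 976 with DESeq2, 1414 with the replicate block, and 318 to 457 when 1 clone was left out. In KO-labelled clones these counts were 1528, 824 (616 with shrinkage), 721 with the replicate block (1208 with treated KO 4 and 5 exchanged) and 131 to 490, beside 642 with all 20 libraries in one fit and 22 genes and 1 member without KO replicates 4 and 5. Between untreated WT and KO-labelled clones, 6 genes passed the looser cut-off, 5 were called with no filter and 13 by DESeq2 (5 with shrinkage). All 20 libraries gave 5, leaving out 1 clone gave 2 to 4, and the replicate block gave 1. Between labels this block joins unrelated clones by number. Between treated WT and KO-labelled clones, 5 were called with no filter, 16 by DESeq2 (6 with shrinkage), 6 with all 20 libraries, and 3 to 5 without 1 clone.

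Members that were not called changed sign in some settings, and the cause was not tested. When 1 clone was left out, the log2 change of AFMID in KO-labelled clones ranged from -0.0213 to 0.174. The difference of WARS1 between untreated WT and KO-labelled clones ranged from -0.352 to 0.0031. Between treated ones, differences ranged from -0.0185 to 0.2301 for IDO1, from -0.4658 to 0.1882 for TDO2, from -0.1392 to 0.0928 for AFMID and from -0.1995 to 0.1522 for WARS1. The same comparison gave -0.0248 for KYNU without KO replicates 4 and 5, 0.0011 for AFMID with no filter and 0.0272 for WARS1 with the replicate block by number. The difference of responses ranged from -0.4368 to 0.1184 for KYNU, from -0.9631 to 0.2312 for KMO, from -0.0367 to 0.2632 for WARS1 and from -0.0972 to 0.1178 for WARS2. With the replicate block it was 0.2386 for KYNU (0.1832 with the exchange), and without KO replicates 4 and 5 it was 0.4314 for KMO. Counts of whole genes do not separate alternative starts, and low counts limit IDO2, KYNU and KMO.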

Other observations

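Some genes of the lists lay just outside the cut-offs and are given after their values were seen. IL4I1, a secreted oxidase that also uses tryptophan, had 0.694 ± 0.177 CPM (SD, n = 5) in untreated and 2.84 ± 1.78 CPM in treated WT clones, with a log2 fold change of 2.05 ± 0.43 (SE) and an adjusted p of 0.0112 from edgeR. In KO-labelled clones it had 0.637 ± 0.467 and 2 ± 1.89 CPM (log2 fold change 1.64 ± 0.71, adjusted p = 0.19). MAOA, which oxidises serotonin and other amines, had 19.8 ± 2.46 CPM (SD) in untreated and 9.83 ± 2 CPM in treated WT clones, with an adjusted p of 0.0023 and a log2 fold change of -0.9975, just short of the fold required. In KO-labelled clones its log2 fold change was -1.003 ± 0.45 (SE) with an adjusted p of 0.20.

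Among the transporters, SLC16A10, which carries aromatic amino acids, had log2 fold changes of -1.71 ± 0.52 (SE, adjusted p = 0.057) in WT clones and -1.64 ± 0.43 (adjusted p = 0.039) in KO-labelled clones. SLC7A8 had -1.25 ± 0.35 (adjusted p = 0.042) and -0.94 ± 0.56 (adjusted p = 0.35). Neither was called by edgeR in either comparison, whereas DESeq2 and the replicate block called both lower in WT clones, and DESeq2 and the block with treated KO replicates 4 and 5 exchanged called SLC16A10 lower in KO-labelled clones.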
